A study of Mus musculus with 49 samples.

Results

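Of 6 long noncoding RNAs (lncRNAs) chosen by name, Malat1, Meg3, Rian, Miat, Snhg11 and Neat1, 5 were rows of the Patch-seq table and are described here in all 49 cells, out of 9020 rows. Neat1 was not a row of this table and is not analysed here. Every row of the table reached a minimum level, 100 RPM or more in at least 2 cells. A missing row therefore does not show that an RNA was absent. Whether Neat1 fell below that level was not tested. The names were fixed without any threshold on the values, but with earlier results of these data known. The cells were single neurons of the primary somatosensory cortex of wild-type (WT) CD1 mice. They were born at E13.5, collected at P7, and found by FlashTag (FT), a fluorescent dye injected into the embryonic ventricle that stays in cells which were dividing at its wall at that time. Every cell carried the same genotype, label and age, and they came from several independent experiments. The paper used male and female mice. The labels assign no cell to an experiment or animal, so the 49 cells had to be treated as 1 sample and no test was made.

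A lncRNA is transcribed and mostly spliced like a messenger RNA but is not translated into a known protein. Malat1 stays in the nucleus, where it gathers in nuclear speckles, the bodies that store splicing factors, while Neat1 builds the neighbouring paraspeckles. Meg3 and Rian are imprinted, read from the maternal copy of the Dlk1-Dio3 region, and Rian carries small nucleolar RNAs in its introns. Miat, also called Gomafu, is a nuclear RNA of neurons, and Snhg11 is the host of small nucleolar RNAs and is known from neurons. The name of the group, nuclear-retained and neuronal, rests on this background. The table holds no separate nuclear and cytoplasmic fractions. In the paper's methods the content of the cell was aspirated into the pipette, and a figure legend shows a neuron just before nuclear suction. How much cytoplasm came with the nucleus is not given in the sources used here.

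On GRCm38, in the GENCODE M21 annotation, Malat1 lay on the minus strand at chr19:5795690-5802672 as 1 exon of 6983 bases. Meg3 lay at chr12:109541001-109571726 and Rian downstream of it at chr12:109603940-109661716, both on the plus strand, with 18089 and 18234 exonic bases. Miat lay on the minus strand at chr5:112213228-112229395 with 9293 exonic bases, and Snhg11 on the plus strand at chr2:158375638-158386145 with 8521. GENCODE M21 classes Malat1, Meg3 and Miat as lincRNA, Rian as processed transcript and Snhg11 as protein coding, while RefSeq lists Snhg11 as a lncRNA. Each of the 5 overlaps other annotated genes, among them 13 small nucleolar RNA genes in Rian and 2 in Snhg11, but none of these overlapping genes is a row of the table. Whether the counting used strand is not given in the sources used here.

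The library kit primes reverse transcription with oligo-dT and keeps 3′ ends, so the 3′ ends of the annotated transcripts are shown here. The longest GENCODE M21 transcripts that end below are Malat1-201 with 6983 bases, Meg3-209 with 14548, Rian-201 with 8089 and Miat-205 with 9163. Their last 60 bases are printed 5′ to 3′, and the capitals mark the last AATAAA signal for polyadenylation or its common variant ATTAAA.
Malat1-201: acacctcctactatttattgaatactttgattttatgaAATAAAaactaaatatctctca
Meg3-209: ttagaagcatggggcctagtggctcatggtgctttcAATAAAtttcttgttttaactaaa
Rian-201: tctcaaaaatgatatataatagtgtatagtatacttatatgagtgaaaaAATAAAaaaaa
Miat-205: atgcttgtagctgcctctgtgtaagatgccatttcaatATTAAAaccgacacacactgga
The signal began 22 bases before the end in Malat1-201, 24 in Meg3-209, 11 in Rian-201 and 22 in Miat-205. Most mature Malat1 is known to end further upstream, where RNase P cuts it behind a tract of encoded adenines, so that its end is not a tail added after cleavage. That tract, a run of 12 adenines shown in capitals and 298 bases before the annotated end, lies on the minus strand in the window chr19:5795978-5796047.
Malat1 tract: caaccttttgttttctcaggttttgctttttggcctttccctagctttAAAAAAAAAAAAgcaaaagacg
A run of 12 or more adenines was found in the longest transcript of 1256 of the 8835 rows matched to GENCODE M21, which is 14.2%, and also in Meg3-209 with 16 and in Rian-201 with 15. The table gives no positions of reads, so where priming took place on these transcripts was not tested.

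Recovered depth ran from 209850 to 35342325 reads in a cell and had its median at 1240101, in 5 library pools of 9 to 12 cells, and RPM gives a gene's share of its cell's reads, with 10000 RPM equal to 1%. At least 2 of 4 neuronal markers (Snap25, Syt1, Stmn2, Map2) reached 10 RPM in 49 of 49 cells. At least 2 markers also reached it for astrocytes in 12 cells, for the oligodendrocyte lineage in 17, for microglia in 9 and for red blood cells in 47. In cell IL01 of pool 3, hemoglobin genes held 68.8% of the reads.

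Malat1 was the most abundant of the 5. It was read in 49 of 49 cells, at 306 RPM in the lowest cell (IL04 of pool 1), at a median of 6287 RPM and at 68722 RPM in the highest cell (IL02 of pool 4). Its mean share was 1.02% of the reads of a cell and its share in the highest cell 6.87%. The lowest value rests on 4221 reads, with an exact 95% Poisson interval of 297 to 316 RPM, and the highest on 78462 reads, with one of 68242 to 69205 RPM, so the 224-fold range between cells is far wider than counting error. Reads have no molecular identifiers and are not independent molecules, so these intervals and the Poisson intervals given further on cover counting error only. Malat1 was at 1000 RPM or more in 38 cells and at 10000 RPM or more in 15. By median RPM it ranked 4th of the 9020 rows. Genes above it included Tuba1a (alpha-tubulin) at 9733 RPM and Tmsb4x (thymosin beta-4, which binds actin monomers) at 9619 RPM.

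Meg3 was also read in every cell. It ranged from 77.1 RPM in IL03 of pool 1 to 22834 RPM in IL10 of pool 5, with a median of 1449 RPM, and ranked 29th by median. It passed 1000 RPM in 33 cells and 10000 RPM in 4. The neighbouring Rian was far lower, although both belong to the same imprinted region: its median was 41.4 RPM, its highest value 1165 RPM (IL07 of pool 2), and 6 cells had no read. Where Rian was not read, a count of 0 allows up to 5.95 RPM in the deepest and 14.3 RPM in the shallowest of these cells (3 reads per cell). Mirg, the next noncoding gene of this region, had at least 1 read in 23 cells and reached 159 RPM at most. The protein-coding genes Dlk1, Rtl1, Dio3 and Begain were not rows of the table and are not analysed here. Given the minimum level of the rows, this does not show that these genes were silent.

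Snhg11 was read in 49 cells, from 9.91 RPM in IL01 of pool 3, the cell with most hemoglobin reads, to 10008 RPM in IL02 of pool 4, with a median of 450 RPM. Its lowest value is only 5 reads, with an exact Poisson interval of 3.22 to 23.1 RPM. Miat was read in 47 cells. Its median was 108 RPM and its highest value 1054 RPM, in IL09 of pool 5, and where it was not read a count of 0 allows up to 6.08 or 9.26 RPM. The order of the medians was thus Malat1, Meg3, Snhg11, Miat and Rian, and the ranges of neighbours in this order overlapped in each case.

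**Figure D1:**
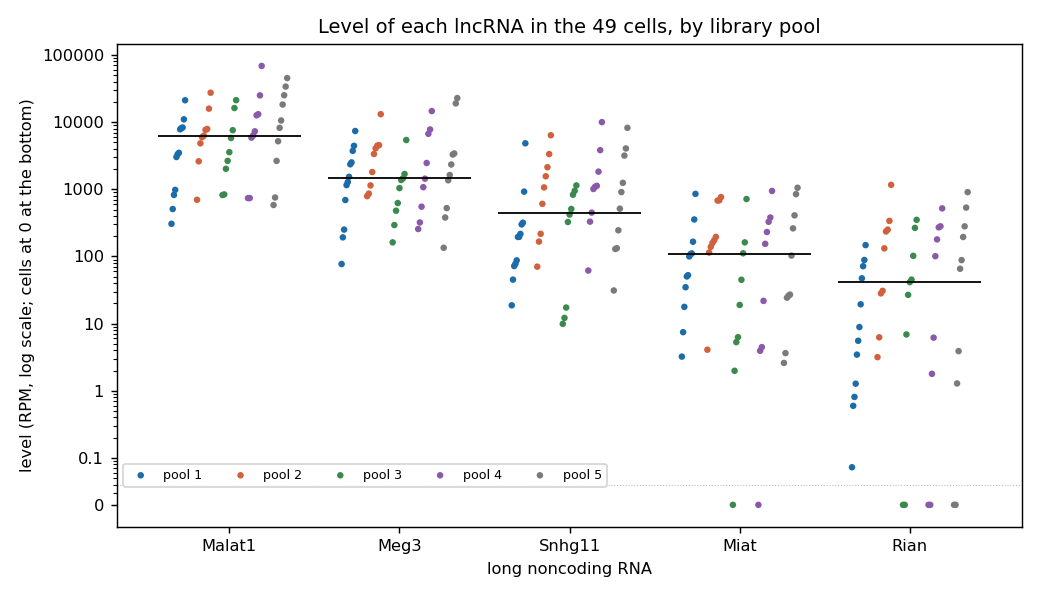
Level of Malat1, Meg3, Snhg11, Miat and Rian in RPM on a log scale (vertical axis), 1 point per cell, coloured and set side by side by library pool, with the median over 49 cells as a black line and cells without a read at the bottom. Malat1 lay between 306 and 68722 RPM and Meg3 between 77.1 and 22834 RPM, while 2 cells had no read of Miat and 6 had none of Rian.

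At a limit of 1 read, the share of cells was 100% for Malat1, Meg3 and Snhg11 (exact Clopper-Pearson 95% interval 92.7% to 100%), 95.9% for Miat (86.0% to 99.5%) and 87.8% for Rian (75.2% to 95.4%). C1qb, a complement gene of microglia that neurons should lack, was set beside them. It had at least 1 read in 38 of the same cells, which is 77.6% (63.4% to 88.2%). C1qb reached 100 RPM in 8 cells, and 9 cells had at least 2 microglial markers at 10 RPM. Whether its reads were microglial RNA or stray reads was not tested, so its share is not a pure background. The intervals of Rian and C1qb overlapped at this limit. The intervals of these shares, here and at 10 RPM, take cells as independent, although cells share library pools and experiments. They are thus descriptions. Rian and C1qb were read in the same cells, so an overlap of separate intervals does not test a difference between them. At 10 RPM, C1qb was found in 11 cells, or 22.4% (11.8% to 36.6%), against 29 cells for Rian, or 59.2% (44.2% to 73.0%), 37 for Miat, or 75.5% (61.1% to 86.7%), and 48 for Snhg11, or 98.0% (89.1% to 99.9%). All 5 lncRNAs were at 10 RPM or more in 24 cells, 4 of them in 18, 3 in 6 and 2 in 1. In 37 cells the reads of Malat1 exceeded 1% of those of the other cells of the same pool together, and this held in 36 cells for Meg3, 31 for Snhg11, 30 for Miat and 29 for Rian. How many reads passed between cells of a pool was not tested.

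Levels of different RNAs are compared per length, although in 3′-end libraries reads need not grow with length. Divided by exonic length, the median was 900 RPM per kb for Malat1, 80.1 for Meg3, 52.8 for Snhg11, 11.7 for Miat and 2.27 for Rian, so the order was the same as in RPM. As a share of reads, the 5 together took 0.947% at the median, from 0.065% in IL04 of pool 1 to 9.46% in IL02 of pool 4. They took at least 1% in 20 cells and at least 5% in 3. Malat1 made up between 38.4% and 88.3% of this sum, with a median of 69.4%.

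Malat1 varied more between cells than other genes of its level. On the log2(RPM + 1) scale its SD over the 49 cells was 1.91, and each of the 9 genes with a median within 2-fold of that of Malat1 had a smaller one, with a median of 1.11. Tuba1a had an SD of 0.80, Tmsb4x of 1.25, and Map1b, a microtubule-associated protein of growing neurites with a median of 3293 RPM, of 0.79. The SD was 1.91 for Meg3, larger than in 79 of the 84 genes of like level, 2.49 for Snhg11, larger than in 448 of 494, 3.20 for Rian, larger than in 1332 of 1381, and 2.81 for Miat, larger than in 967 of 1337.

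In Malat1, cells of the same pool differed more than the pools did. Its median was 3413 RPM in pool 1 (range 306 to 21184 RPM), 6287 RPM in pool 2 (698 to 27429), and 3572 RPM in pool 3 (821 to 21245). Pool 4 had a median of 7304 RPM (738 to 68722) and pool 5 one of 9403 RPM (584 to 45316). Of the variance on the log2 scale, 7.48% lay between pools for Malat1, 8.48% for Meg3, 8.81% for Rian, 10.6% for Miat and 18.4% for Snhg11. If pools had no bearing on the values, the mean expectation would be 8.33%. Leaving out a pool changed 3 medians by over 1.5 times: Snhg11 was at 830 RPM without pool 1, Miat at 51.5 RPM without pool 2 and Rian at 65.5 RPM without pool 1.

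Malat1, Meg3 and Snhg11 tended to be high in the same cells and low in the same cells, and Miat and Rian followed them less closely. Between Malat1 and Meg3, Spearman's rho over the 49 cells was 0.86, and within the 5 pools it lay between 0.75 and 0.93. Malat1 and Snhg11 had a rho of 0.82 (0.78 to 0.97 within pools), and Meg3 and Snhg11 of 0.78 (0.78 to 0.92). The points are single cells that share library pools and differ in depth, so these values are descriptions. Meg3 and Rian, which come from the same region, had a rho of 0.69, below that of Malat1 and Meg3, which lie on different chromosomes. These values are not on a par: Rian had no read in 6 cells and reached 10 RPM in 29, Malat1 and Meg3 in all 49. How far low counts lowered the rho of Rian was not tested. Meg3 and Miat had 0.67, Rian and Snhg11 0.63, Malat1 and Miat 0.61, Miat and Snhg11 0.58, Malat1 and Rian 0.54, and Rian and Miat 0.53. In each of the 5 pools the rho was above 0 for every pair other than Rian and Miat, which was above 0 in 4 pools.

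**Figure D2:**
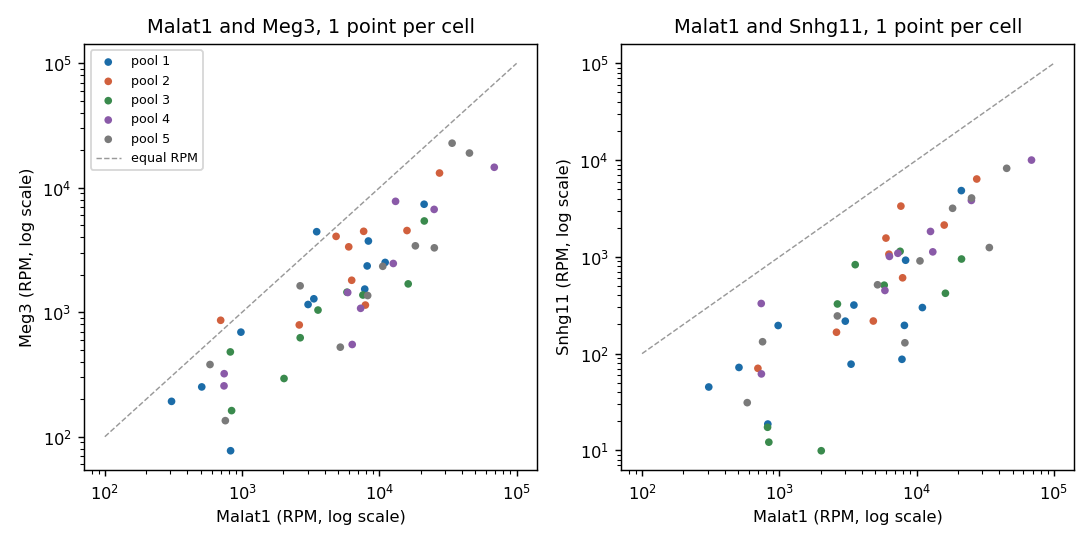
Meg3 (left) and Snhg11 (right) against Malat1 in RPM on log axes, 1 point per cell coloured by library pool, with a dashed line at equal RPM. Cells of all 5 pools lie among each other from low to high, with a rho of 0.86 for Meg3 and 0.82 for Snhg11, and 2 cells lie above the line for Meg3.

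The ratio between Malat1 and Meg3 varied less than either RNA. Meg3 was at 28.8% of Malat1 at the median, between 8.68% and 127%, and the SD of the log2 ratio was 0.94 against 1.91 for each RNA. Malat1 was the higher of both in 47 of 49 cells. The exceptions were IL02 of pool 1, with 3494 RPM of Malat1 and 4440 RPM of Meg3, and IL08 of pool 2, with 698 and 862 RPM. Snhg11 was at 9.91% of Malat1 at the median, between 0.491% and 44.6%, with an SD of the log2 ratio of 1.41.

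Cells at the ends were shared in part. IL07 of pool 2, IL09 of pool 5 and IL02 of pool 4 were among the 10 highest cells for all 5 lncRNAs, and 4 further cells were for 4 of them. In IL09 of pool 5, Malat1 was at 45316 RPM, Meg3 at 19023, Snhg11 at 8227, Miat at 1054 and Rian at 534 RPM. In IL06 of pool 3, the only cell among the 10 lowest for all 5, Malat1 was at 839 RPM, Meg3 at 162 and Snhg11 at 12.2 RPM, and Miat and Rian had no read. That cell had 493604 reads. Depth varied among the low cells. IL04 and IL01 of pool 1, among the 10 lowest cells for 4 of the lncRNAs, had more reads than IL02 of pool 4. IL09 of pool 4 (324131 reads) and IL01 of pool 3 (504302) were also among the 10 lowest for 4. Both, and IL06 of pool 3, had fewer reads than any cell among the 10 highest for 4 or 5. The smallest depth there was 632587 reads, in IL09 of pool 3. The part of depth in these ends was not tested.

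Measures of the whole cell moved with the lncRNAs to differing degrees. For Malat1 the rho was -0.02 with the recovered reads, 0.02 with the number of genes detected, 0.00 with the share of mitochondrial reads and 0.02 with that of hemoglobin reads. The other 4 had a rho between -0.04 and 0.24 with the reads and between -0.03 and 0.26 with the genes detected. It was between 0.02 and 0.13 with mitochondrial reads and between -0.14 and 0.05 with hemoglobin reads. With ranks centred within pools, Miat had 0.30 with the reads and 0.33 with the genes detected, and Rian 0.28 and 0.30. Malat1, Meg3 and Snhg11 then had at most 0.14 and 0.21, both in Snhg11. The share of reads on 43 rows with ribosomal protein names went the other way. Its rho was -0.48 with Malat1, -0.45 with Miat, -0.43 with Meg3, -0.37 with Snhg11 and -0.36 with Rian. IL02 of pool 4, the highest in Malat1, had the smallest ribosomal protein share of all cells, at 0.216%, and IL05 of pool 5, with Malat1 at 584 RPM, the largest, at 2.47%. RPM values of a cell add up to a fixed total, and the part of this in these values was not tested.

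Among the 8979 other genes that had 100 reads or more in 2 cells or more, a rho of 0.5 or more was found with Malat1 for 129, or 1.44% of the genes, with Meg3 for 97 (1.08%), with Rian for 105 (1.17%), with Miat for 130 (1.45%) and with Snhg11 for 123 (1.37%). Against Malat1, 14 genes (0.156%) were at -0.5 or less. The median rho to Malat1 over all these genes was 0.04. These counts depended on which cells were used: for Malat1 they ran from 108 without pool 4 to 229 without pool 2, for Meg3 from 77 to 202, for Rian from 87 to 215, for Miat from 83 to 217 and for Snhg11 from 122 to 200. The other 4 lncRNAs were all among the 129 genes.

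Over all cells, the gene most like Malat1 was Meg3, and the gene most like Meg3 and most like Snhg11 was Malat1. These places changed when a pool was left out: Son was most like Malat1 without pool 1, Atp11b was most like Malat1 and most like Meg3 without pool 3, and 9330162G02Rik was most like Snhg11 without pool 4. After Meg3, the genes with the highest rho to Malat1 were Son (0.82), a scaffold protein of nuclear speckles, Snhg11, Gria2 (0.75), a subunit of AMPA-type glutamate receptors, Ptprd (0.73), a receptor tyrosine phosphatase of synapses, Atp11b (0.73), a phospholipid flippase, Cspp1 (0.73), a protein of centrosomes and cilia, Grin2b (0.73), a subunit of NMDA receptors, and the unnamed transcripts A330076H08Rik (0.72) and 9330162G02Rik (0.72). Son was read in every cell, from 23.8 to 7407 RPM with a median of 1163 RPM. Gria2 ranged from 6.17 to 4406 RPM with a median of 789 RPM. The lowest rho to Malat1 was that of Nedd8 (-0.59), a ubiquitin-like modifier, followed by Nme1 (-0.58), a nucleoside diphosphate kinase, Tceb2 (-0.56), the elongin B subunit, Capzb (-0.56), which caps actin filaments, and Eif5a (-0.54), a translation factor.

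The genes most like Meg3 after Malat1 were Cspp1 (0.81), Snhg11, 4932438A13Rik (0.77) and Ank2 (0.74), an ankyrin of axons. Those most like Rian were Pnisr (0.74), an SR-related nuclear protein, Srrm2 (0.72), a core protein of nuclear speckles, Meg3, Snhg14 (0.68), the noncoding antisense transcript across Ube3a, and 4932438A13Rik (0.68). The order was least stable for Miat, where 3 to 5 of its 10 most alike genes stayed among them when a pool was left out. Those most like Miat were Meg3, Grin2b (0.67), Mier1 (0.66), Ptprd (0.66) and N4bp2l2 (0.65), and those most like Snhg11 were Malat1, Ptprd (0.79), Meg3, 9330162G02Rik (0.77) and Eml5 (0.76). A rho of 0.5 or more to all 5 lncRNAs was found for 26 genes, among them Grin2b, Son, Csmd3, Ptprd, Snhg14, Srrm2, Gria2, Ank2, Clk1 and Rbm25, and 8690 genes reached it for none of the 5.

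The protein components of nuclear speckles were compared as a list of 24 genes, of which 22 were in the table. Their median rho to Malat1 was 0.24, beside 0.04 over all genes, and 17 were above 0. A rho of 0.5 or more, which 1.44% of all genes had, was found for 6 of the 22: Son (0.82), Pnn (0.65) and Clk1 (0.65), a nuclear protein of splicing complexes and a kinase of SR proteins, Srrm2 (0.64), Srsf10 (0.60), an SR protein, and Clk4 (0.51), a further kinase of SR proteins. The classical SR proteins were not among them, with 0.16 for Srsf1, -0.10 for Srsf2 and -0.21 for Srsf3. Median levels of the 6 ran from 68.2 RPM (Srsf10) to 1163 RPM (Son), beside 3.89 RPM over all genes with a length. The 1.44% is thus not a share of genes of like level, and the list was chosen with earlier results of these data known. The same list had a median rho of 0.20 to Meg3 with 6 genes at 0.5 or more, 0.26 to Rian with 4, 0.23 to Miat with 5 and 0.22 to Snhg11 with 4, where the shares of all genes were 1.08%, 1.17%, 1.45% and 1.37%. For 17 paraspeckle genes, out of 18 listed, the median rho to Malat1 was 0.08 and 0 reached 0.5, a count that the background share of 1.44% would also give in so short a list. Nono was at 0.06, Sfpq at 0.08 and Hnrnpk at -0.35. Of the genes that process or bind Malat1 or Neat1, 5 of 6 were in the table, with a median of 0.18 and none at 0.5, which is likewise no more than the background.

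Genes of the ribosome had lower values, while those of the neuronal cytoplasm lay on both sides of 0. The 42 rows with ribosomal protein names and enough reads had a median rho to Malat1 of -0.25. Single values lay between -0.42 for Rpl38 and 0.27 for Rpl9, and 3 were above 0. Neuronal genes of the cytoplasm fell into values of -0.36 for Uchl1, -0.26 for Calm2, -0.20 for Stmn2 and -0.16 for Tubb3 on the one side, and of 0.16 for Snap25, 0.23 for Syt1 and 0.24 for Map2 on the other. The 10 mitochondrial genes had a median of 0.02. In the 10 marker lists with genes that could be compared, none had a rho of 0.5 or more to any of the 5 lncRNAs, which at background shares of 1.08% to 1.45% says little for lists of 4 to 9 genes. No endothelial marker had enough reads. The median to Malat1 was 0.20 for neuron markers, with 3 of 4 above 0, and 0.11 for superficial layer markers, with 6 of 6 above 0. It was 0.03 for excitatory neurons, 0.02 for subcerebral layer 5 and for red blood cells, -0.04 for corticothalamic layer 6 and for inhibitory neurons, -0.05 for microglia, and -0.08 for astrocytes and for the oligodendrocyte lineage.

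**Figure D3:**
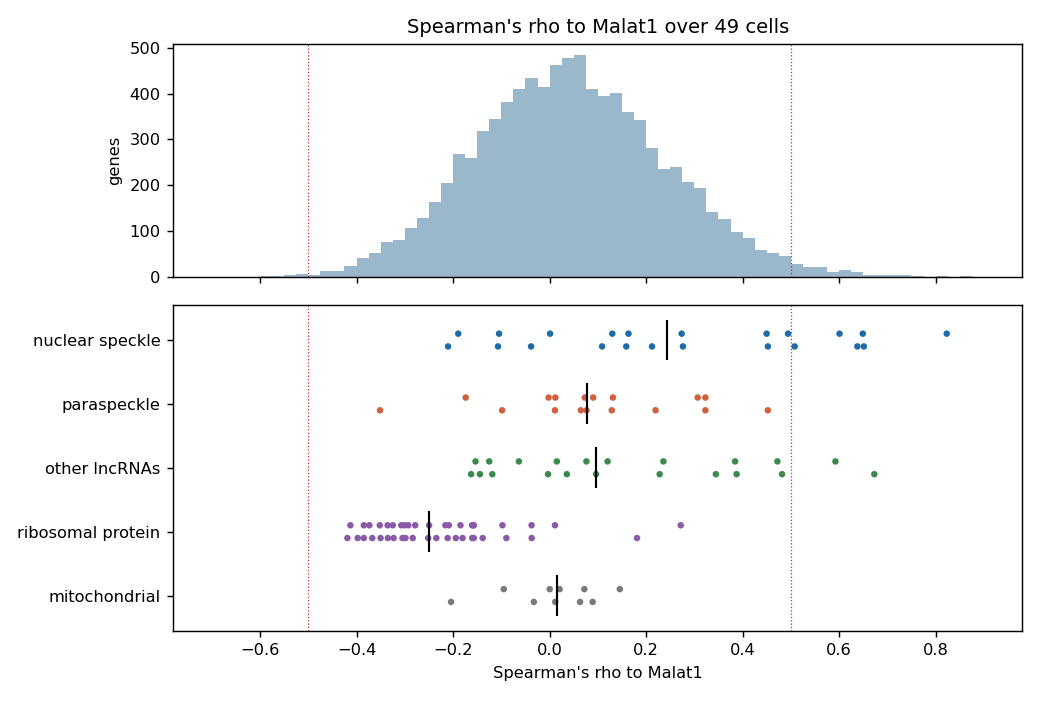
Spearman's rho to Malat1 over 49 cells (horizontal axis) as a histogram of 8979 genes (upper panel) and by gene for 5 lists (lower panel), with the median of each list as a black line and dotted lines at -0.5 and 0.5. Nuclear speckle genes have a median of 0.24 and ribosomal protein genes of -0.25.

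Of 196 further genes that GENCODE M21 annotates as noncoding and that had enough reads, 8 had a rho of 0.5 or more to Malat1, which is 4.08% beside the 1.44% of all genes, and their median was 0.06. Of the 21 further known lncRNAs in the table, out of 29 listed, Kcnq1ot1 (0.67), an imprinted antisense RNA, and Snhg14 (0.59) reached 0.5. By level none came near Malat1 or Meg3. Apart from Cct6a, a chaperonin gene that the annotation classes as a processed transcript, the highest medians were 300 RPM for 1700020I14Rik, 190 RPM for Gas5, a host of small nucleolar RNAs, and 111 RPM for Pantr1, a lncRNA of the neural lineage. Their rho to Malat1 was 0.02, 0.47 and -0.06.

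Genes with more exonic bases had a higher rho to the lncRNAs. In 5 groups of 1758 genes ordered by exonic bases, the median rho to Malat1 was -0.07, -0.02, 0.03, 0.09 and 0.16 from the shortest to the longest. For Meg3 it went from -0.06 to 0.16, for Snhg11 from -0.06 to 0.17, for Miat from 0.01 to 0.21 and for Rian from 0.00 to 0.18. By genomic span it went from -0.03 to 0.12 for Malat1. The 124 genes with a length and a rho of 0.5 or more to Malat1 had a median span of 57.1 kb and 9.89 kb of exons, against 26.1 and 4.73 kb over all genes and 10.2 and 2.35 kb for the 13 genes at -0.5 or less. Within the 1758 genes of the highest level, from 60.7 RPM up, the median was -0.18 for the shortest of 5 equal groups by span and 0.15 for the longest. In the group of the lowest level, up to 0.089 RPM, it was 0.06 and 0.05, and these genes have few reads. Length is not independent of gene function and base composition, and their parts were not tested.

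**Figure D4:**
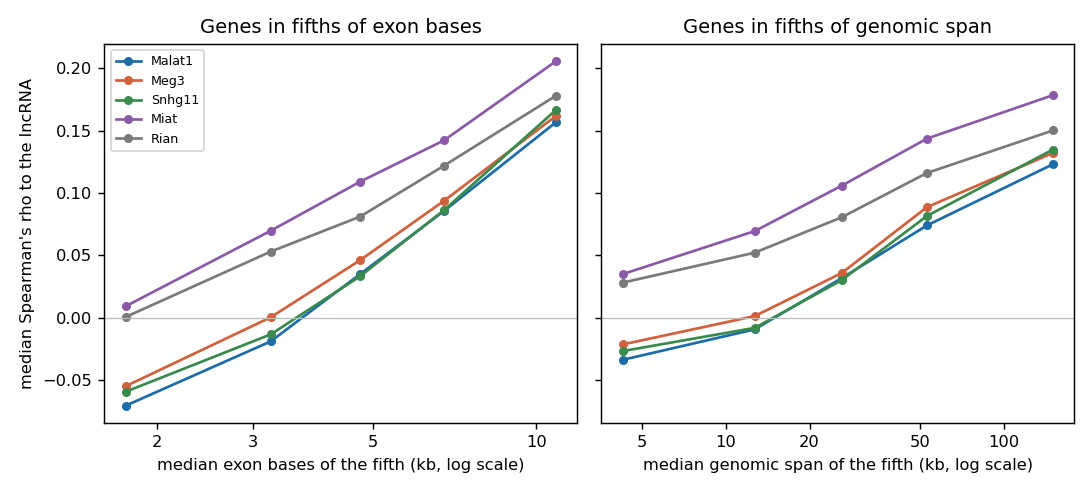
Median Spearman's rho over 49 cells to each of the 5 lncRNAs (vertical axis) for genes in 5 equal groups by exonic bases (left) and by genomic span (right), plotted at the median length of each group in kb on a log scale. For Malat1 the median went from -0.07 to 0.16 with exonic bases and from -0.03 to 0.12 with span.

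The levels were also set beside marker classes, counted where at least 2 markers of a class reached 10 RPM. A cell can belong to several classes, so they are not cell types. Malat1 had a median of 6083 RPM in 24 cells with corticothalamic layer 6 markers and of 6342 RPM in the 25 others. With markers at 100 RPM in place of 10, these medians were 6817 RPM in 8 cells and 6287 RPM in 41, so the order turned. For subcerebral layer 5 markers the order turned too, from 5982 RPM in 33 cells with them and 7445 RPM in 16 without to 7755 RPM in 22 and 4839 RPM in 27. With superficial layer markers Malat1 was at 7304 RPM in 39 cells against 3178 RPM in 10, and at the limit of 100 RPM at 8185 RPM in 20 against 5194 RPM in 29. With inhibitory markers it was 5931 RPM in 26 cells against 7304 RPM in 23, and 3572 RPM in 11 against 7494 RPM in 38 at the higher limit.

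The less abundant lncRNAs had wider gaps between these medians. Rian had a median of 58.4 RPM with layer 6 markers and of 6.89 RPM without, which turned to 4.50 and 47.2 RPM at the limit of 100 RPM. With superficial markers it was at 45.2 RPM against 6.53 RPM, and at 56.4 against 8.87 RPM at the higher limit. Miat had medians of 111 RPM with and 20.4 RPM without superficial markers and of 139 and 35.4 RPM with and without layer 5 markers, and of 160 and 52.6 RPM and 164 and 50.4 RPM at 100 RPM. Snhg11 was at 373 RPM with and 830 RPM without layer 6 markers, and at 272 and 830 RPM at the higher limit. Meg3 had medians of 1492 and 1376 RPM with and without layer 6 markers. In each of these comparisons, at both limits, the ranges overlapped, for example 698 to 21245 RPM with layer 6 markers and 306 to 68722 RPM without for Malat1.

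Because Malat1, Meg3 and Snhg11 moved together most closely, their promoters are shown, from 250 bases before to 50 bases after the start in RefSeq on GRCm38.p6. Promoters were found for 5 of 5 lncRNAs. Capitals mark 6 motifs, each searched on both strands. They are TGACG as the core of the cyclic AMP response element and TGACGTCA as the full element, which contains that core on both strands. The others are the CCAAT box, TATAAA as the TATA box, GGGCGG as the GC box and CACGTG as an E-box.
Malat1, chr19:5802623-5802922, minus strand: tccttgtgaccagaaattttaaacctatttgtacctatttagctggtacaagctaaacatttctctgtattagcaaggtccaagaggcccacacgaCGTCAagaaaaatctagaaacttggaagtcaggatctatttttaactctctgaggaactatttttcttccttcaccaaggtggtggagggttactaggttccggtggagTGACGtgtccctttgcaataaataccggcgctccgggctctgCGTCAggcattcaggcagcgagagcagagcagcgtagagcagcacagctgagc
Meg3, chr12:109540746-109541045, plus strand: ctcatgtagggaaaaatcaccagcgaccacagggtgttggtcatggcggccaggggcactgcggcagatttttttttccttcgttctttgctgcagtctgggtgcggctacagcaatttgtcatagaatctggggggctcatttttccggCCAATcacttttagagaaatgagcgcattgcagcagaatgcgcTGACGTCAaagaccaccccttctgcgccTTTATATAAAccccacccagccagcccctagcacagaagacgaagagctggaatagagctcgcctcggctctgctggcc
Snhg11, chr2:158375463-158375762, plus strand: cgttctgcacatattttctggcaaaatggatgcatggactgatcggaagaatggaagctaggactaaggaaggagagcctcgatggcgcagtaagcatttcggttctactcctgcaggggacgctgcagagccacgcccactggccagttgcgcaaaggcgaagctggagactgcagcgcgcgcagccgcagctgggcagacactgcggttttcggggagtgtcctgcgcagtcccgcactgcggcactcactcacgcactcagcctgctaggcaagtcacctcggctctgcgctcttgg
The promoter of Malat1 held the core of the cyclic AMP response element 3 times, and that of Meg3 shown here held the full element, a CCAAT box and a TATA box read on both strands in overlap. A further Meg3 promoter in RefSeq, at chr12:109545148-109545447, held none of the 6. None of the 6 motifs was in the window of Snhg11 or in that of Rian, and that of Miat had 1 GC box. Over 32544 promoters of the same length, the core element was in 20.9%, the full element in 1.80%, the CCAAT box in 37.4%, the TATA box in 13.6%, the GC box in 35.9% and the E-box in 7.17%. Thus no motif of the 6 was common to these 3 windows.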

How the data were processed

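The authors prepared 3′-end cDNA of each cell with the SMART-Seq v4 3′ DE kit, which has no molecular identifiers, and sequenced it in pools. Per the labels and the paper's methods, STAR aligned the reads to mm10 (GRCm38), HTSeq counted them per gene, and the deposited values are RPM, that is reads scaled to the same total in each cell, and not log transformed. The annotation, the tool versions and the use of strand are not given in the sources used here.

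From the deposited RPM values, whole reads were recovered by dividing each cell by what 1 read is worth in it. Of the values above 0, 100% were within 0.01 of a whole read. A count test was not run on them, since there is 1 group. Reads served for detection, counting intervals and the floor of 100 reads in 2 cells, which kept 8980 of 9020 rows. Levels are RPM, and spread is on log2(RPM + 1). The depth of 209850 to 35342325 reads makes 1 read worth between 0.028 and 4.77 RPM.

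Spearman's rho describes how genes vary over the 49 cells, with no p-value, because cells are not replicates. The rows were matched by symbol to GENCODE M21, which found 8835, and promoters came from RefSeq. Named genes are the lncRNAs, the genes with the highest and lowest rho, the noncoding genes with the highest medians, the genes with medians next to Malat1, and the members of lists, of which 1 is not reported here. The members and lists were chosen with earlier results of these data known. Ribosomal protein rows were taken by name, without Rps6k genes. The names include the annotated pseudogenes Rps3a3 and Rps4l and related genes such as Rpl39l, and leave out forms such as Rplp0 and Rpsa. Recovery and rho were tested on simulated data.

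The alternatives were limits of 10 reads and 10 RPM, thinning every cell to 358412 reads, RPM over reads on neither mitochondrial nor hemoglobin genes, edgeR's TMM, pseudocounts of 0.1 and 10, Pearson's r, ranks centred within pools, no floor, markers at 100 RPM, and leaving out each pool or the cells with at least 1% hemoglobin reads. For counts of genes like a lncRNA, TMM and leaving out cells, and for correlations the thinning, were chosen after seeing the data. The scripts ran on edgeR 4.0.16 in R 4.3.3, and on pandas 2.3.3, numpy 2.4.6, scipy 1.17.1 and matplotlib 3.10.9 in Python 3.11.15.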

Additional observations from a re-analysis of the deposited data

How the results depend on the processing

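No paired analysis was possible because no second group exists. Shares counted as kept when they stayed inside the 95% interval of the reported value, medians within 1 SD between cells, and SDs and correlations within 1 standard error. Of 340 recomputed values, 316 were kept, a count that includes these medians. For each of the 5 lncRNAs the SD in RPM was larger than the median, with 12872 beside 6287 RPM for Malat1. No fall of a median could thus have counted as moved, so the count says little about medians. No correlation over 2 standard errors from 0 changed its sign. The shares of cells that moved were those of the least abundant lncRNAs: Rian was in 63.3% of cells from 10 reads and 59.2% from 10 RPM, and Miat in 81.6% and 75.5%. With pseudocounts of 0.1 and 10, the SD between cells was 4.10 and 2.13 for Rian and 3.24 and 2.13 for Miat. The number of genes at a rho of 0.5 or more was 229 for Malat1 without pool 2. For Meg3 it was 202, 164 and 148 without pools 1, 2 and 3, and for Rian 215 and 180 without pools 1 and 5. For Miat it was 213, 202, 83 and 217 without pools 1, 2, 4 and 5, and for Snhg11 200 without pool 2. The cause was not tested, and each of these alternatives leaves fewer cells. The rho of Malat1 and Meg3 stayed between 0.86 and 0.89, that of Malat1 and Snhg11 between 0.81 and 0.83, and that of Malat1 and Rian between 0.49 and 0.59. Correlations with depth or hemoglobin moved in 5 cases, to between -0.16 and 0.14.

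Depth limits the absence of Rian and Miat to below the levels given with their zeros. Neither animals, experiments nor positions of the cells are in the labels, so differences between animals and between cells cannot be told apart.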

Other observations

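Genes named for other noncoding classes gave further values. Xist, the RNA that coats the inactive X chromosome, had a rho of 0.48 to Malat1 and to Snhg11 and of 0.17 to Rian. Mice of both sexes were used, and the cells were not split by sex here. Mir124a-1hg, the host of a neuronal microRNA, was read in 37 cells at up to 357 RPM, and had a rho of 0.59 to Meg3, 0.58 to Rian, 0.55 to Snhg11 and 0.38 to Malat1. Sox2ot and Mir9-3hg, noncoding RNAs known from neural progenitors, had values of -0.25 and -0.30 to Meg3. Gas5 and Snhg1, hosts of small nucleolar RNAs, had a rho of 0.47 and 0.39 to Malat1, while Snhg8 was at -0.14. No explanation of these values was tested.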
